A study of Mus musculus with 9 samples.

Results

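The genes described here are 50 genes of DNA replication and cell division, measured in the subcutaneous fat of endothelial AGO1 knockout mice. They were taken from a fixed list of symbols: 17 genes of S phase, called replication genes below, and 33 genes of the G2 phase, mitosis and cytokinesis, called mitotic genes. The mitotic class includes the general proliferation markers Mki67 and Top2a. All 50 were found among the 35071 genes to which the deposited transcripts were matched. All 50 were also among the 17968 genes abundant enough to be tested. RNA sequencing was done on 9 libraries from C57BL/6 mice aged 24 weeks, with 3 libraries labelled Homo KO, 3 labelled Hete KO and 3 labelled WT. The title describes the knockout as one of AGO1 in endothelial cells and the WT mice as littermates. What drives the knockout, the sex of the mice and their diet are not named in the labels.

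Most cells of adult fat rest outside the cell cycle, and mature adipocytes do not divide. Transcripts of the division program in such tissue come from the few cells that cycle, which in mouse fat include macrophages, endothelial cells and progenitors. Replication genes are switched on by E2F factors at the entry to S phase. Mitotic genes are held down in resting cells by the DREAM complex, which binds the CHR element of their promoters, and are raised in G2 by B-MYB and FOXM1, with NF-Y at nearby CCAAT boxes. Whole tissue was sequenced, so fewer cycling cells and less of these transcripts per cell cannot be told apart.

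Promoters of the members differed by class in the letters they hold. RefSeq windows of 300 bases, from 250 bases before to 50 after the gene start, were found for 44 of the 50 members (GRCm38.p6), with 30 windows for 28 mitotic genes and 18 windows for 16 replication genes. Each was searched on both strands for TTTGAA (the CHR letters), CCAAT (the NF-Y box) and the E2F letters TTTCCCGC, TTTCGCGC, TTTGCCGC or TTTGGCGC. TTTGAA was present in 23 mitotic windows (76.7%) and 3 replication windows (16.7%), against 17.9% of all 32851 windows and 16.0% of those of protein-coding genes. The E2F letters were present in 38.9% of replication windows and 6.67% of mitotic windows, against 2.26% of all windows. CCAAT was present in 72.2% of replication windows and 76.7% of mitotic windows, against 37.4% of all windows. A match of letters is a description of the window and shows no binding in these animals.

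Promoter sequence of 5 members is printed, because their transcripts had some of the smallest p values of their class against WT or because they carry the class's letters. Each is the 250 bases before the RefSeq start, 5′ to 3′ on the strand of the gene, and capitals mark the letters searched, on either strand. Cenpe (chr3:135212313-135212562, plus strand) had CCAAT starting 12 bases before the start and no TTTGAA. Top2a (chr11:99024190-99024439, minus strand) had TTTGAA at 179 and 23 bases before the start, with 6 CCAAT boxes. Kif11 (chr19:37376132-37376381, plus strand) had TTTGAA at 19 bases and CCAAT at 45 bases before the start.
Cenpe: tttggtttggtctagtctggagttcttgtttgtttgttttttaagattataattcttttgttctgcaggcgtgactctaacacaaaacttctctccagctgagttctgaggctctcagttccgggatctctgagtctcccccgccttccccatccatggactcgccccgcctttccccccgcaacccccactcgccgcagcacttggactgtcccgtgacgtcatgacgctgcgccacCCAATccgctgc
Top2a: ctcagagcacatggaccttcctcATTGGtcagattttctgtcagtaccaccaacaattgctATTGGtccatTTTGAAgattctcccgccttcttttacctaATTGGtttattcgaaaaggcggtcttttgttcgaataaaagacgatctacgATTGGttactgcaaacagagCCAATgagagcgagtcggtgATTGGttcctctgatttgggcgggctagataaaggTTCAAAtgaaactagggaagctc
Kif11: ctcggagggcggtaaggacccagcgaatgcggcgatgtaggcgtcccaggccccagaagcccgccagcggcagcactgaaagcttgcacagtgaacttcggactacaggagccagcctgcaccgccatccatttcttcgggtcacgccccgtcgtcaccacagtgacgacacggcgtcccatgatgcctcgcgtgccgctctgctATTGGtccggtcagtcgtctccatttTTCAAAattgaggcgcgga

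The replication genes Mcm5 (chr8:75109259-75109508, plus strand) and Mcm6 (chr1:128359706-128359955, minus strand) are shown for contrast, since both carry E2F letters and no TTTGAA. In Mcm5 the E2F letters began 153 bases before the start. In Mcm6 they began at 110 and 47 bases before the start.
Mcm5: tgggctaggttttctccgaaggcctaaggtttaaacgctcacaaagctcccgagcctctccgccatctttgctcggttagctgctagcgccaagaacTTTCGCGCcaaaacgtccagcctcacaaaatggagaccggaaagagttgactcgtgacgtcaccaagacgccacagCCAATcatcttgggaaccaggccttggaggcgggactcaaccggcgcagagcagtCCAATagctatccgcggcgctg
Mcm6: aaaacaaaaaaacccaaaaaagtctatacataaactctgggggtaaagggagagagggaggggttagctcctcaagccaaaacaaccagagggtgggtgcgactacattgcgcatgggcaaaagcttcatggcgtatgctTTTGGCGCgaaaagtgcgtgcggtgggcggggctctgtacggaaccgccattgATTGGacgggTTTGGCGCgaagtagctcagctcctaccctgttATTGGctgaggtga

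Libraries held between 20843427 and 28252001 estimated counts, and 50 members together took between 0.0324 and 0.0749% of them. Values below are normalized CPM, the counts scaled to library size with TMM factors, unless TPM, which is per transcript length, is named. Ago1, the targeted gene, had 62.2, 58.6 and 25.8 CPM in Homo KO 1, 2 and 3, then 51.2, 59.7 and 60.1 CPM in Hete KO 1, 2 and 3, and 69.9, 63.8 and 63.4 CPM in the WT libraries. Every KO library lay below every WT library, but neither group passed the test (edgeR adjusted p = 0.441 for Homo KO and 0.699 for Hete KO against WT). Adipocyte markers took 1.40 to 2.09% of the counts in every library, as the tissue label says. Skeletal muscle markers took 2.33% in Hete KO 2, 0.896% in WT 1 and 0.843% in WT 2, against at most 0.107% in the other 6 libraries. Liver markers took 0.172% in WT 2 and 0.186% in WT 3, against 0.0551 to 0.0868% elsewhere. Trf, a marker on this list that was abundant in every library (495 to 1020 CPM), weighed heavily in these shares. Most of the other liver markers differed more, such as Ttr with 85.7 and 56.7 CPM in WT 2 and WT 3 and at most 1.75 CPM elsewhere.

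By level, the most abundant mitotic genes per transcript length in WT were Kif23 (23.7 ± 6.54 TPM), Mki67 (19.6 ± 7.55 TPM), Top2a (18.2 ± 4.34 TPM) and Prc1 (18 ± 3.24 TPM). Neighbours in that order do not differ beyond their SDs (n = 3). Among replication genes, Pcna (54.2 ± 6.65 TPM) stood above Mcm7 (27.8 ± 4.45 TPM) by more than their SDs, and Cdc6 was lowest at 1.23 ± 0.226 TPM. The scarcest members were thinly counted: 9 mitotic genes had under 30 estimated counts in at least 1 library, and the lowest value was 5 counts. No replication gene was below 38 counts in a library.

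Summed over the 33 mitotic genes, the level was 185, 153 and 114 TPM in Homo KO 1, 2 and 3, then 154, 110 and 138 TPM in Hete KO 1, 2 and 3, and 270, 282 and 172 TPM in WT 1, 2 and 3. Only Homo KO 1, among the 6 KO libraries, reached above WT 3, the lowest WT library. By share of counts no KO library reached WT. That share was 0.0178 to 0.0275% in Homo KO, 0.0143 to 0.0212% in Hete KO and 0.0297 to 0.0442% in WT. The mean was 151 ± 35.7 TPM in Homo KO, 134 ± 22.3 TPM in Hete KO and 241 ± 60.2 TPM in WT, which is 0.624 and 0.554 of WT. The 17 replication genes summed to 204, 209 and 166 TPM in Homo KO, to 191, 152 and 181 TPM in Hete KO and to 227, 226 and 182 TPM in WT. Both KO groups overlapped WT in this TPM sum. The ratios of the mean TPM to WT were 0.913 for Homo KO and 0.827 for Hete KO. Pcna, Mcm7 and Rrm1 were the most abundant replication genes in the TPM sum. By share of counts the groups did not overlap WT, though Homo KO 1 and WT 3 nearly met. That share was 0.0203 to 0.0241% in Homo KO, 0.0181 to 0.0226% in Hete KO and 0.0242 to 0.0307% in WT.

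**Figure D1:**
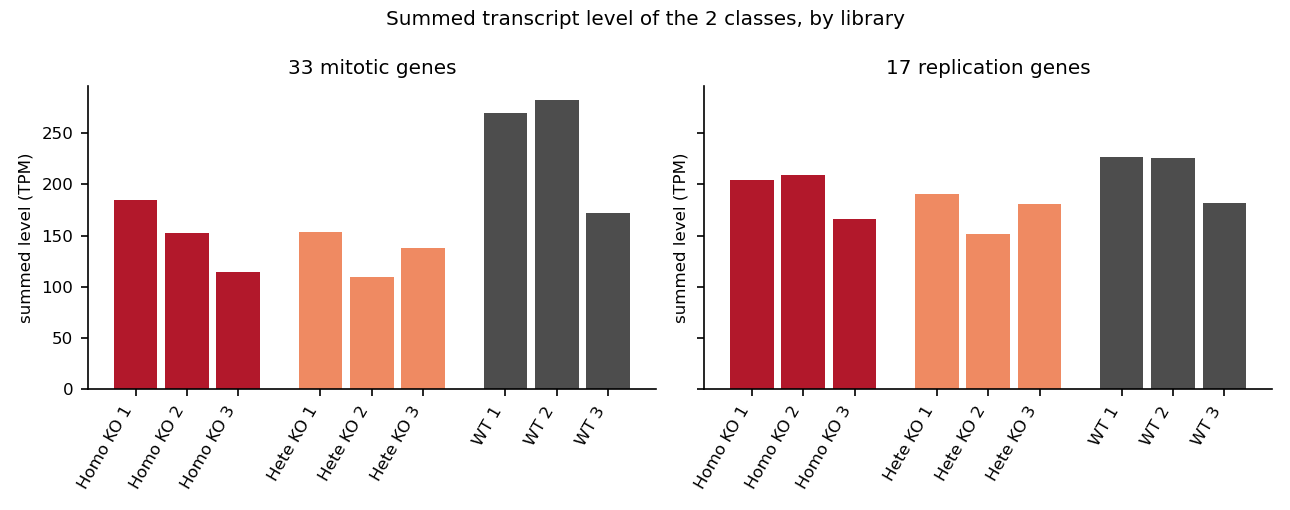
Summed TPM of the mitotic genes (left) and of the replication genes (right) in each library, with 1 bar per library and both axes starting at 0. The mitotic sums run from 110 to 185 TPM in the 6 KO libraries and from 172 to 282 TPM in the 3 WT libraries, while the replication sums lie between 152 and 227 TPM in all 9.

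Homo KO was compared with WT. Both KO groups are set against the same 3 WT libraries, so the comparisons with WT are not independent of each other. No member passed the test in Homo KO: edgeR's quasi-likelihood test called 0 of 50 lower and 0 higher, where the background was 0.0% of all tested genes in each direction. The smallest adjusted p was 0.154, for Aurkb. At an unadjusted p under 0.05 the count was 27 of 50 members on the lower side and 0 on the higher, against 8.68% of all tested genes on the lower side and 7.75% on the higher. By class these were 22 of 33 mitotic genes and 5 of 17 replication genes. DESeq2 called 9 members lower (Cenpe, Top2a, Kif11, Cenpf, Mki67, Mcm5, Kif20a, Aurkb and Bub1), against 2.0% of the genes to which it gave an adjusted p, and limma on log2 TPM called 0.

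The log2 fold change of the mitotic genes in Homo KO against WT had a median of -0.78, with all 33 below 0 and a range of -1.98 (Bub1) to -0.10 (Hmmr). Over the replication genes the median was -0.38, with 14 of 17 below 0 and a range of -1.01 (Mcm5) to 0.10 (Mcm7). The median of all tested genes was -0.01. In 20 of 33 mitotic genes and 8 of 17 replication genes every Homo KO library lay below every WT library, against 11.2% of all tested genes. The difference between the classes was not tested. Without the 3 libraries rich in muscle transcripts (WT 1, WT 2 and Hete KO 2), the mitotic median was -0.40 and the replication median -0.27. This left WT 3 alone in its group, and WT 3 was the lowest WT library in 27 of 33 mitotic genes. The same limit holds for every value given below without these libraries.

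In Hete KO against WT, 2 members fell, both of them mitotic: Cenpe and Aurkb. This is 2 of 50, where 0.267% of all tested genes were called lower and 0.15% higher. At an unadjusted p under 0.05, 35 members lay on the lower side and 0 on the higher, 27 of 33 mitotic genes and 8 of 17 replication genes, against 12.1% of all tested genes on the lower side and 9.71% on the higher. DESeq2 called 22 members lower, of which 17 were mitotic and 5 were replication genes (Mcm2, Mcm5, Mcm6, Uhrf1 and Rrm2), against 5.72% of the genes to which it gave an adjusted p. Limma on log2 TPM called 0.

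The median log2 fold change in Hete KO against WT was -1.02 for the mitotic genes, with 31 of 33 below 0, and -0.38 for the replication genes, with 15 of 17 below 0, beside 0.02 for all tested genes. Every Hete KO library lay below every WT library in 24 of 33 mitotic and 7 of 17 replication genes, against 12.1% of all tested genes. Mcm7, a helicase subunit, was the 1 member whose Hete KO libraries all lay above WT, against 12.6% of all tested genes, at 26.2, 25.6 and 26.7 CPM in Hete KO and 25.2, 24.4 and 23.2 CPM in WT. Its log2 fold change was 0.11 and did not pass. Without the 3 muscle-rich libraries, again with WT 3 alone in its group, the mitotic median was -0.53.

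**Figure D2:**
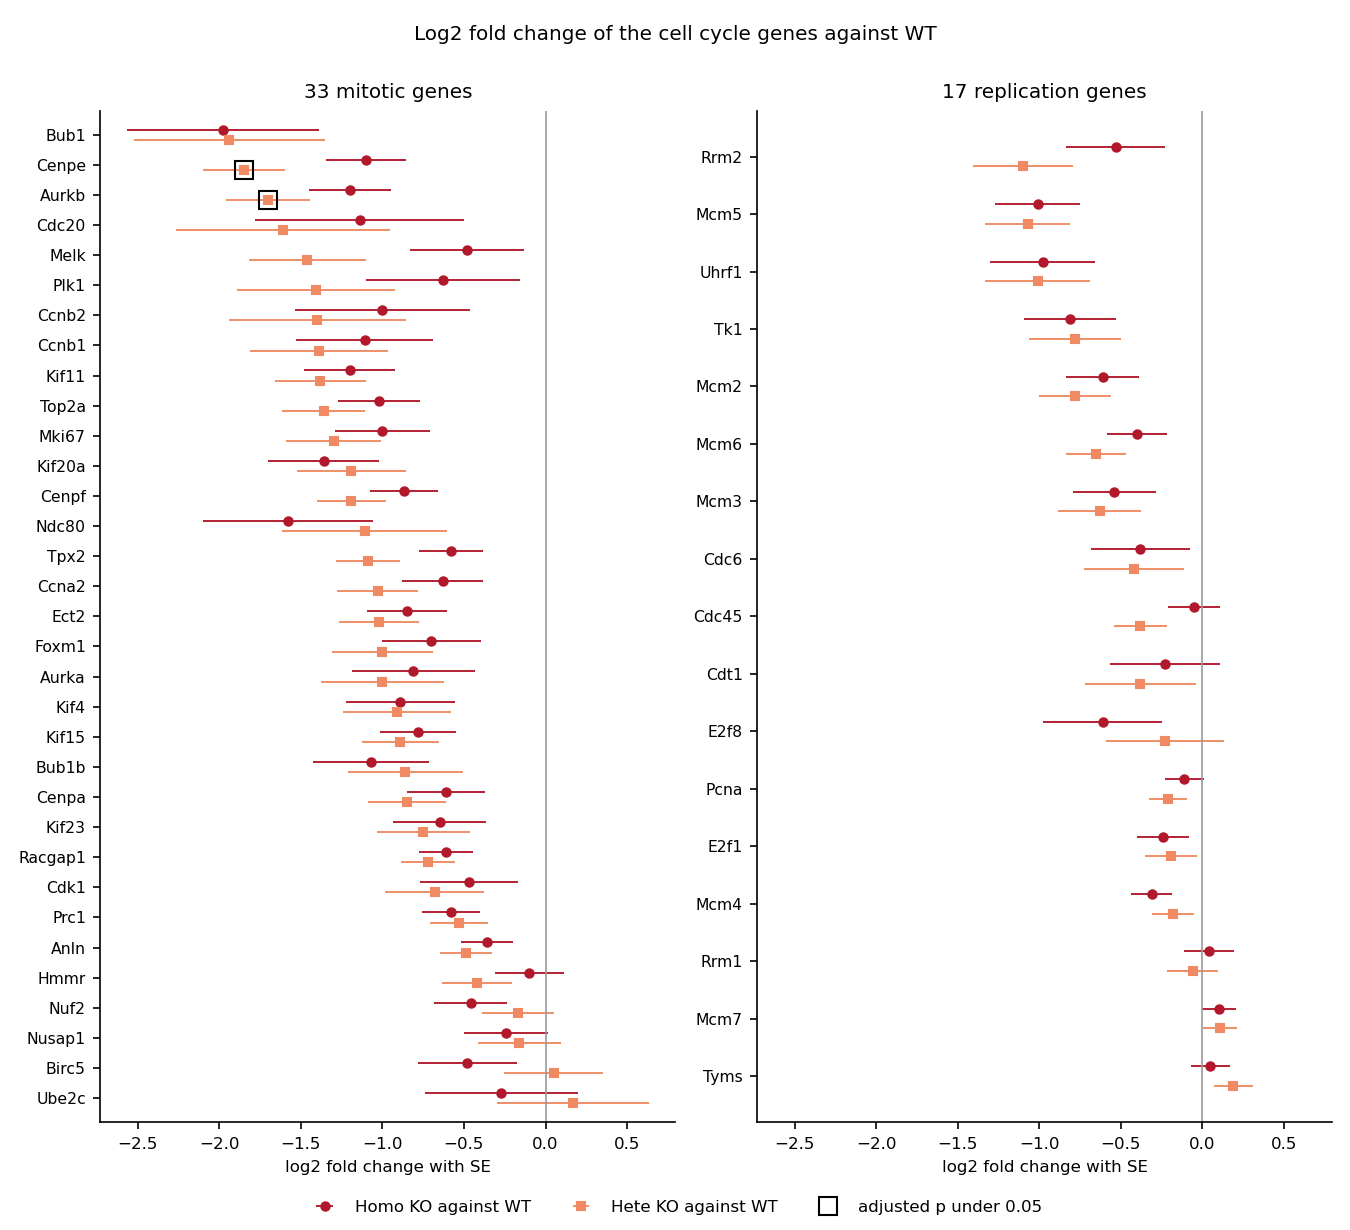
Log2 fold change against WT with its SE for each mitotic gene (left) and replication gene (right), with Homo KO as circles and Hete KO as squares, ordered by the Hete KO value. Open squares mark Cenpe and Aurkb, the 2 members with an adjusted p under 0.05, and the points of Rrm1, Mcm7, Tyms and Pcna lie near 0.

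Cenpe encodes CENP-E, the kinetochore motor that carries chromosomes to the middle of the spindle (chromosome 3, 135212537 to 135273611, plus strand, mm10, ENSMUSG00000045328.11). It had 7.97, 6.23 and 6.28 CPM in Homo KO 1, 2 and 3, then 3.67, 3.12 and 5.35 CPM in Hete KO 1, 2 and 3, and 15.6, 17.2 and 11.1 CPM in WT 1, 2 and 3. The 3 groups did not overlap, with Hete KO lowest and Homo KO between it and WT. In Hete KO the log2 fold change against WT was -1.85 (SE 0.253, edgeR adjusted p = 0.0326), and in Homo KO it was -1.10 (SE 0.246, adjusted p = 0.161). The Hete KO call ended without WT 2 (-1.70), Hete KO 2 (-1.71), Hete KO 3 (-2.08), Homo KO 1 (-1.83), Homo KO 2 (-1.85) or Homo KO 3 (-1.83). Without the 3 muscle-rich libraries the log2 fold change was -1.29 in Hete KO and -0.69 in Homo KO.

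Aurkb encodes Aurora B, the kinase of the chromosomal passenger complex that corrects faulty attachments of chromosomes (chromosome 11, 69045647 to 69051664, plus strand, ENSMUSG00000020897.12). The libraries held 2.22, 1.90 and 1.64 CPM in Homo KO, 1.30, 1.26 and 1.51 CPM in Hete KO and 4.43, 4.97 and 3.89 CPM in WT. Again the groups were apart, in the same order as for Cenpe. Its log2 fold change was -1.70 in Hete KO (SE 0.257, edgeR adjusted p = 0.0403) and -1.20 in Homo KO (SE 0.252, adjusted p = 0.154). The Hete KO call ended without WT 2 (-1.60), WT 3 (-1.77), Hete KO 2 (-1.67), Hete KO 3 (-1.76), Homo KO 1 (-1.68), Homo KO 2 (-1.70) or Homo KO 3 (-1.68). Leaving out Hete KO 1 instead brought the count of members called lower to 15, while 3.25% of all genes tested without it were called lower.

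The other mitotic and replication members described below did not pass in edgeR's test in either comparison, with adjusted p of at least 0.0526 in Hete KO and 0.162 in Homo KO. Their values are given in the order of their roles.

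**Figure D3:**
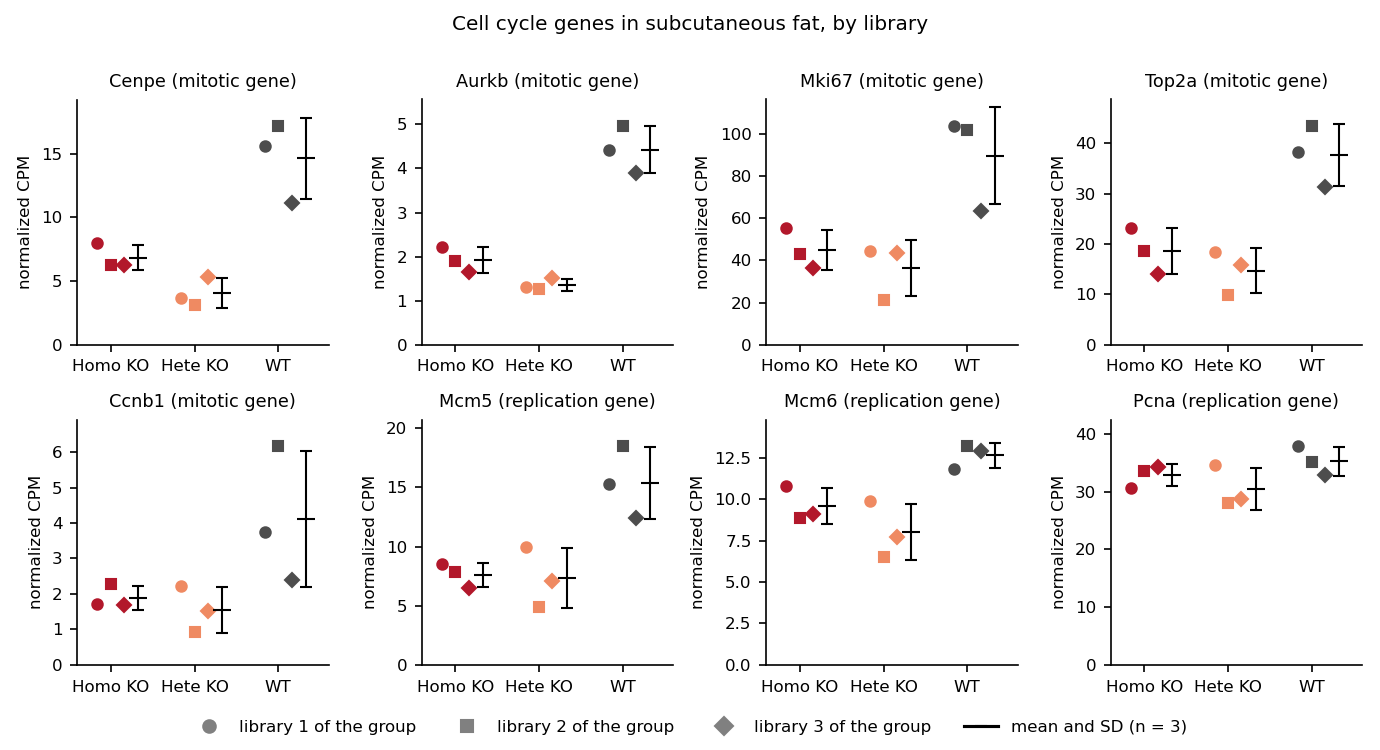
Normalized CPM of 5 mitotic and 3 replication genes in each library, with the mean and SD of each group (n = 3) as a bar to the right and every axis starting at 0. The WT libraries of Cenpe, Aurkb, Mki67, Top2a, Ccnb1, Mcm5 and Mcm6 lie above all 6 KO libraries, by a small margin for Ccnb1. The groups of Pcna overlap between 28.0 and 37.9 CPM.

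The general proliferation markers are given first. Mki67, which encodes the Ki-67 protein that coats mitotic chromosomes, had 55.2, 43.1 and 36.4 CPM in Homo KO, 44.7, 21.3 and 43.5 CPM in Hete KO and 104, 102 and 63.4 CPM in WT. No KO library reached the lowest WT library, WT 3, which stood well under the other two. Its log2 fold change was -1.0 (SE 0.292) in Homo KO and -1.30 (SE 0.294) in Hete KO, and without the muscle-rich libraries -0.50 and -0.52. Top2a, the topoisomerase that untangles sister chromatids, had 23.1, 18.7 and 14.0 CPM in Homo KO, 18.4, 9.78 and 15.9 CPM in Hete KO and 38.2, 43.5 and 31.3 CPM in WT. Its groups were apart from WT as well, at -1.02 (SE 0.253) in Homo KO and -1.36 (SE 0.255) in Hete KO.

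Entry into mitosis is driven by cyclin B with the kinase CDK1. Ccnb1, which encodes cyclin B1, had 1.72, 2.28 and 1.68 CPM in Homo KO, 2.22, 0.927 and 1.51 CPM in Hete KO and 3.76, 6.17 and 2.39 CPM in WT. The KO libraries all lay below WT 3, by a small margin for Homo KO 2 and Hete KO 1. The log2 fold change was -1.11 (SE 0.419) in Homo KO and -1.39 (SE 0.422) in Hete KO, and -0.33 and -0.34 without the muscle-rich libraries. Cdk1 had 4.94, 3.42 and 4.52 CPM in Homo KO, 3.52, 3.62 and 3.99 CPM in Hete KO and 8.81, 5.17 and 3.92 CPM in WT. WT 3 fell among the KO libraries, so both groups overlapped WT, with -0.47 in Homo KO (0.13 without the muscle-rich libraries) and -0.68 in Hete KO.

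Birc5 encodes survivin, the partner of Aurora B in the passenger complex, and unlike Aurkb it overlapped WT in both KO groups. It had 7.07, 4.52 and 6.45 CPM in Homo KO, 6.19, 12.6 and 7.34 CPM in Hete KO and 9.27, 9.70 and 6.20 CPM in WT. Hete KO 2 was the highest of all libraries, and the log2 fold change was 0.05 in Hete KO (-0.32 without Hete KO 2) and -0.48 in Homo KO. With limma on log2 TPM the Hete KO value was -0.58 at a pseudocount of 0.5 and -0.63 at 0.1. The deposited transcripts divided the counts of the gene. The 947-base transcript had 1.48, 1.40 and 0.497 CPM in Homo KO, 0.393, 0.304 and 0.582 CPM in Hete KO and 2.50, 3.33 and 1.25 CPM in WT, so Hete KO lay wholly below WT and Homo KO overlapped it. The 3334-base transcript had 5.58, 3.11 and 5.96 CPM in Homo KO, 5.78, 12.3 and 6.77 CPM in Hete KO and 6.78, 6.36 and 4.95 CPM in WT. The excess of Hete KO 2 was thus in the longer transcript, and no test was made on single transcripts.

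Ube2c, the ubiquitin-conjugating enzyme that serves the anaphase-promoting complex, also had its highest value in Hete KO 2, at 5.35 CPM against 1.31 to 2.81 CPM elsewhere. It was looked at after its values were seen. Its exons overlap those of Tnnc2, a troponin gene of fast skeletal muscle on the opposite strand, and the labels do not say whether the libraries kept strand. Tnnc2 had 263 CPM in Hete KO 2, 144 CPM in WT 1 and 153 CPM in WT 2, against at most 18.2 CPM in the other libraries. The 2191-base Ube2c transcript had 2.37 CPM in Hete KO 2, 1.59 CPM in WT 2 and 0.363 CPM in WT 1, and at most 0.251 CPM elsewhere. The 967-base transcript was also highest in Hete KO 2, at 2.98 CPM against 1.23 to 2.58 CPM elsewhere. Reads of the overlapping genes cannot be told apart here.

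**Figure D4:**
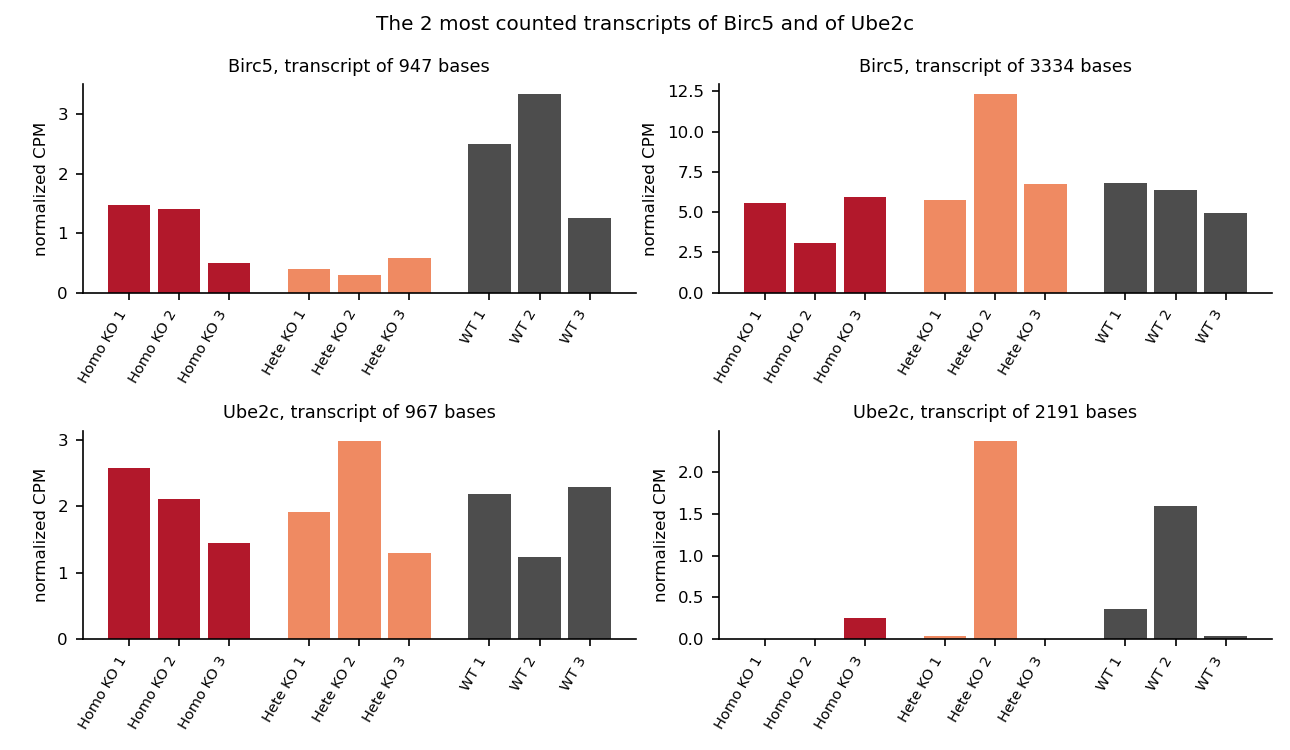
Normalized CPM of the 2 most counted transcripts of Birc5 (top) and of Ube2c (bottom) in each library, shorter transcript on the left, with axes starting at 0 and differing between panels. The short Birc5 transcript is lower in all 3 Hete KO libraries (0.304 to 0.582 CPM) than in any WT library, and the long Birc5 transcript and both Ube2c transcripts are highest in Hete KO 2.

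Among genes of the kinetochore and the spindle, Cenpf, a large kinetochore protein, had 11.3, 9.41 and 13.1 CPM in Homo KO, 10.2, 6.95 and 10.1 CPM in Hete KO and 24.7, 20.2 and 17.1 CPM in WT. No KO library reached the WT range, and the log2 fold change was -0.87 (SE 0.209) in Homo KO and -1.19 (SE 0.211, edgeR adjusted p = 0.0526) in Hete KO. Kif11, the motor that pushes the spindle poles apart, had 3.35, 3.61 and 2.38 CPM in Homo KO, 2.93, 1.90 and 3.45 CPM in Hete KO and 8.14, 7.37 and 5.99 CPM in WT. It was likewise separate from WT in both groups, at -1.20 (SE 0.278) and -1.38 (SE 0.280), and kept -0.94 and -0.90 without the muscle-rich libraries. Tpx2, which activates Aurora A on the spindle, had 8.11, 6.56 and 6.49 CPM in Homo KO, 5.71, 4.0 and 5.20 CPM in Hete KO and 10.8, 11.6 and 9.31 CPM in WT. All 3 groups were apart, at -0.58 (SE 0.194) in Homo KO and -1.09 (SE 0.196) in Hete KO.

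At the end of division, Racgap1, a subunit of the centralspindlin complex of cytokinesis, had 6.88, 6.51 and 7.76 CPM in Homo KO, 7.19, 6.11 and 6.22 CPM in Hete KO and 12.1, 9.98 and 10.2 CPM in WT. The KO groups overlapped each other and lay below WT, with -0.61 (SE 0.165) in Homo KO and -0.72 (SE 0.165) in Hete KO. Kif23, also a subunit of centralspindlin, had -0.65 (SE 0.283) in Homo KO and -0.75 (SE 0.284) in Hete KO. Ect2, the exchange factor that Racgap1 activates, had -0.85 (SE 0.246) and -1.02 (SE 0.247) in Homo KO and Hete KO. Prc1, the bundler of the spindle midzone, had -0.58 (SE 0.18) and -0.53 (SE 0.18), and Anln, the anillin scaffold, -0.36 (SE 0.159) and -0.49 (SE 0.16). Differences between these genes were not tested.

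Among the remaining mitotic genes, Bub1, a kinase of the spindle checkpoint, had the lowest log2 fold change of all members in both groups, -1.98 (SE 0.589) in Homo KO and -1.94 (SE 0.585) in Hete KO, on 8 to 96 estimated counts per library. Foxm1, the transcription factor that raises mitotic genes in G2, had 3.53, 3.09 and 2.83 CPM in Homo KO, 1.89, 2.23 and 3.60 CPM in Hete KO and 6.76, 4.37 and 4.24 CPM in WT. Its KO libraries all lay below WT, at -0.70 (SE 0.304) and -1.0 (SE 0.307). Besides Birc5, Ube2c and Cdk1, only Ccnb2, Kif4 and Nusap1 among the mitotic genes overlapped WT in both KO groups.

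The replicative helicase is built from Mcm2 to Mcm7, and its subunits differed in their values. Mcm5 had 8.52, 7.84 and 6.53 CPM in Homo KO, 9.98, 4.93 and 7.05 CPM in Hete KO and 15.3, 18.5 and 12.4 CPM in WT. Both KO groups lay below WT, with -1.01 (SE 0.260, edgeR adjusted p = 0.174) in Homo KO and -1.07 (SE 0.261, adjusted p = 0.0746) in Hete KO, and -0.70 and -0.53 without the muscle-rich libraries. Mcm2 had 10.9, 9.03 and 9.04 CPM in Homo KO, 10.9, 7.25 and 7.58 CPM in Hete KO and 14.6, 18.3 and 11.4 CPM in WT. Its KO libraries were below WT by as little as the gap between 10.9 and 11.4 CPM, and the log2 fold change was -0.61 (SE 0.223) and -0.78 (SE 0.223).

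Mcm6 had 10.8, 8.84 and 9.08 CPM in Homo KO, 9.86, 6.49 and 7.73 CPM in Hete KO and 11.8, 13.2 and 12.9 CPM in WT. It also lay below WT in both groups, at -0.40 (SE 0.182) and -0.65 (SE 0.183). The other subunits were Mcm3 at -0.54 and -0.63, Mcm4 at -0.31 and -0.18 and Mcm7 at 0.10 and 0.11 in Homo KO and Hete KO. The exons of Mcm7 overlap those of Cops6 and Ap4m1 on the opposite strand, so reads may be shared between them.

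Pcna, the sliding clamp of the replication fork, had 30.7, 33.5 and 34.3 CPM in Homo KO, 34.7, 28.0 and 28.8 CPM in Hete KO and 37.9, 35.1 and 32.9 CPM in WT. Its groups overlapped, with -0.11 (SE 0.118) in Homo KO and -0.21 (SE 0.118) in Hete KO, and on log2 TPM the Homo KO value was 0.12. Uhrf1, which maintains DNA methylation behind the fork, had 6.30, 5.18 and 4.39 CPM in Homo KO, 7.97, 3.29 and 4.28 CPM in Hete KO and 11.4, 12.0 and 7.99 CPM in WT. Hete KO 1 all but met WT 3, and the log2 fold change was -0.98 (SE 0.324) in Homo KO and -1.01 (SE 0.324) in Hete KO.

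Genes that supply deoxynucleotides split. Rrm2, the S-phase subunit of ribonucleotide reductase, had 3.31, 2.71 and 2.14 CPM in Homo KO, 1.41, 1.77 and 2.33 CPM in Hete KO and 4.26, 4.61 and 2.92 CPM in WT. Hete KO lay below WT at -1.10 (SE 0.308), while Homo KO overlapped it at -0.53 (SE 0.303). Tk1, thymidine kinase, had 10.8, 8.65 and 6.78 CPM in Homo KO, 10.5, 9.06 and 7.20 CPM in Hete KO and 11.0, 22.0 and 12.9 CPM in WT. WT 2 was high, and without the muscle-rich libraries -0.81 and -0.78 became -0.57 and -0.54. The exons of Tk1 overlap those of Afmid on the opposite strand, which held 266 estimated counts in WT 2 against 43.4 to 143 in the other libraries, so reads may be shared. Rrm1, the other subunit of the reductase, had 0.04 in Homo KO and -0.06 in Hete KO, and Tyms, thymidylate synthase, 0.05 and 0.19. The licensing factors Cdc6 (-0.38 and -0.42) and Cdt1 (-0.23 and -0.38) and the factor gene E2f1 (-0.24 and -0.19) overlapped WT in both groups.

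Single libraries held much of the spread. WT 3 was the lowest WT library in 27 of 33 mitotic genes, and Hete KO 2 was the lowest Hete KO library in 25 of 33. In Homo KO, library 1 was the highest in 28 of 33 and library 3 the lowest in 24 of 33. Among replication genes, WT 3 was lowest of its group in 8 of 17, Hete KO 2 was lowest in 10 of 17, Homo KO 1 highest in 12 of 17 and WT 2 highest in 10 of 17. No WT library was the lowest of all 9 for any mitotic gene.

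Homo KO was also compared directly with Hete KO, to ask whether the KO groups differ from each other. No member passed in edgeR's test, 0 of 50 in each direction, where the background was 0.0%, and DESeq2 and limma also called 0 members. At an unadjusted p under 0.05, 3 members lay on the higher side (Cenpe, Melk and Tpx2) and 0 on the lower, against 2.25% of all tested genes on the higher side and 3.19% on the lower. Melk, a kinase gene of mitotic cells, had 1.95, 1.85 and 1.81 CPM in Homo KO and 1.15, 0.759 and 0.924 CPM in Hete KO, which do not overlap, a log2 fold change of 0.98 (edgeR adjusted p = 0.899). For Cenpe the log2 fold change was 0.76 (SE 0.250) and for Tpx2 0.50 (SE 0.196). In 6 members every Homo KO library lay above every Hete KO library, against 5.73% of all tested genes, and in 0 members the reverse, against 5.64%. These were Cenpe, Aurkb, Tpx2, Melk, the cyclin A gene Ccna2 and Cdc45, which activates the replicative helicase. Exons of Ccna2 overlap those of Exosc9, and exons of Cdc45 those of Ufd1, on the opposite strand, so reads may be shared. Median log2 fold changes were 0.19 for the mitotic and 0.06 for the replication genes.

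Further genes of the same machinery were taken from lists drawn up by role. Of 62 other mitotic genes, 0 passed in either KO group by edgeR's test. At an unadjusted p under 0.05, 21 in Homo KO and 34 in Hete KO lay on the lower side (33.9 and 54.8%, against 8.68 and 12.1% of all tested genes) and 0 on the higher side, with medians of -0.49 and -0.81. Spag5, the astrin gene of the spindle, had 2.72, 1.71 and 1.89 CPM in Homo KO, 2.19, 1.69 and 1.99 CPM in Hete KO and 5.93, 7.58 and 3.67 CPM in WT, and all KO libraries lay below WT. Hmgb2, a chromatin protein of cycling cells, had -0.80 in Homo KO and -0.99 in Hete KO, Ckap2l, a spindle protein, -1.18 and -1.44, and Cdca2, which recruits a phosphatase to chromosomes, -1.13 and -1.65.

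Of 40 other replication genes, 0 passed and 6 in Homo KO and 7 in Hete KO had an unadjusted p under 0.05 on the lower side, with medians of -0.18 and -0.22. These counts are 15.0 and 17.5% of the list, beside 8.68 and 12.1% of all tested genes. Chaf1a, a subunit of the histone chaperone CAF-1, had 9.69, 8.37 and 8.79 CPM in Homo KO, 10.1, 6.15 and 7.34 CPM in Hete KO and 11.8, 19.4 and 13.4 CPM in WT. It lay below WT in both groups, at -0.73 and -0.92. Mcm10, a replication initiation factor, had -0.74 and -0.84, Clspn, the checkpoint mediator claspin, -0.54 and -0.98, and Lig1, the ligase of Okazaki fragments, -0.18 and -0.60.

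Of 32 genes that govern entry into and exit from the cycle, 0 passed, and at an unadjusted p under 0.05, 1 lay lower and 1 higher in Homo KO and 4 lower and 2 higher in Hete KO, with medians of -0.06 and -0.04. Over all tested genes the shares were 8.68% lower and 7.75% higher in Homo KO and 12.1% lower and 9.71% higher in Hete KO, so these counts were near or under the background. Ccnd1, the cyclin D1 gene of G1, had 46.6, 36.3 and 33.9 CPM in Homo KO, 35.1, 20.6 and 26.4 CPM in Hete KO and 47.1, 47.5 and 39.9 CPM in WT. Homo KO overlapped WT and Hete KO did not, at -0.20 and -0.71. Rbl2, the p130 pocket protein of the DREAM complex, had 81.5, 98.8 and 92.8 CPM in Homo KO, 93.8, 110 and 110 CPM in Hete KO and 86.1, 66.2 and 82.1 CPM in WT. Only Hete KO lay wholly above WT, at 0.42 (edgeR adjusted p = 0.111), with 0.22 in Homo KO. E2f2, an activating E2F gene, had -0.95 and -0.53. Cdkn2a, the gene of the inhibitor p16, was at most 0.362 CPM in the KO libraries against 0.535 to 1.04 CPM in WT, too scarce for a firm fold change.

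The summed markers of macrophages, progenitors and red cells also lay below WT in every Hete KO library. The 10 macrophage markers, all measured and none at 0, took 0.064 to 0.102% of the counts in Homo KO, 0.0497 to 0.0715% in Hete KO and 0.0934 to 0.140% in WT. In Hete KO 8 of 10 had an unadjusted p under 0.05 on the lower side, with C1qc, a complement gene of macrophages, past the test (log2 fold change -1.17, edgeR adjusted p = 0.0426), and in Homo KO 5 of 10. Over all tested genes, 12.1% in Hete KO and 8.68% in Homo KO lay lower at that p, and 0.267% passed the test on the lower side in Hete KO. The 8 progenitor markers took 0.147 to 0.182% in Homo KO, 0.0947 to 0.143% in Hete KO and 0.172 to 0.245% in WT, none of them at 0. In Hete KO 7 of these 8 had an unadjusted p under 0.05 on the lower side, with Dpp4, a marker of early progenitors, past the test (-1.15, edgeR adjusted p = 0.0490), and in Homo KO 2 of 8. The 6 red cell markers took 0.00608 to 0.016% in Homo KO, 0.00871 to 0.0114% in Hete KO and 0.021 to 0.0247% in WT. Endothelial markers, 8 in number, took 0.0663 to 0.105% in Homo KO, 0.0601 to 0.0733% in Hete KO and 0.0659 to 0.0975% in WT, and so overlapped.

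Within all 3 groups the libraries stood in the same order by their share of macrophage markers as by their summed mitotic TPM. This also held for the endothelial markers, and for the progenitor markers in 2 groups. It held in 1 group for the B cell, T cell, skeletal muscle, epithelial and red cell markers, and in 0 for the liver and adipocyte markers. A group of 3 libraries allows few orders, so a match of order alone is weak. The part of these cell types, and of muscle and liver tissue in single libraries, in the values of the cell cycle genes was not tested.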

How the data were processed

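Per the file headers, the deposited tables hold 1 row per transcript with fractional estimated counts (expected counts). They also hold TPM, which the authors scaled by effective length. Per the submitters' processing notes the build is mm10; the quantifier is not given in the sources used here. Transcripts were matched to GENCODE M21 by identifier (111362 of 113193), summed per gene and rounded. All 9 libraries were fitted together with edgeR 4.0.16 in R 4.3.3 (TMM, filterByExpr, quasi-likelihood F-test, two-sided, 6 residual degrees of freedom), and p values were adjusted over 17968 genes by the Benjamini-Hochberg method with a threshold of 0.05. The fit was tested on simulated data. Alternatives used DESeq2 1.42.0 and limma 3.58.1 on log2(TPM + 0.5) and log2(TPM + 0.1), other filters and samples. Values after ± are SDs over n = 3 libraries. The labels do not say whether the libraries come from separate animals, so p values measure the spread between these libraries. The members and lists were chosen with earlier results of these data known. Values in every library are given for 12 textbook markers and for the 8 mitotic and 5 replication members with the smallest p in either comparison with WT, which makes 18 members, and for up to 4 genes of each other list. Bub1, Foxm1, Melk, Mcm7, Ube2c and members given only by fold change were named after their values were seen. Promoters come from RefSeq (GRCm38.p6). The values of 1 marker gene are not reported here.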

Additional observations from a re-analysis of the deposited data

How the results depend on the processing

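The median log2 fold change of both classes stayed below 0 in both comparisons with WT under all 22 alternatives, from -0.99 to -0.40 for mitotic genes in Homo KO, -1.15 to -0.53 in Hete KO, -0.48 to -0.27 for replication genes in Homo KO and -0.59 to -0.29 in Hete KO. The mitotic medians moved by more than the spread only without the 3 muscle-rich libraries (-0.40 and -0.53). This alternative was chosen after seeing the data, as was the use of protein-coding transcripts alone. It leaves WT 3 alone in its group, the lowest WT library in 27 of 33 mitotic genes. Muscle transcripts and the choice of WT library cannot be told apart in it. Without Hete KO 2 alone, the muscle setting chosen beforehand, the mitotic medians were -0.78 in Homo KO and -0.96 in Hete KO.

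The number of members called in Hete KO against WT was 2. It was 22 with DESeq2, 7 without a filter and 4 with a filter of 1 CPM in 3 libraries. A robust fit gave 6, and protein-coding transcripts alone gave 1 (Cenpe). It was 0 with the 2 compared groups only, with limma on log2 TPM at both pseudocounts, and without Hete KO 2. Leaving out 1 library gave 0 to 15. In Homo KO against WT the number was 0, except 9 with DESeq2. Leaving out the liver libraries (WT 2 and WT 3) left WT 1 alone in its group. Leaving out the 3 muscle-rich libraries left WT 3 alone, so no calls are counted for those fits. Over all genes in Hete KO against WT, 75 were called, and 1584 with DESeq2, 258 without a filter, 304 with a robust fit, 21 with protein-coding transcripts, 11 without the 3 muscle-rich libraries, 1 without Hete KO 2 (the 1 library above 1% muscle transcripts), 1 without the liver libraries, 0 with 2 groups only or limma, and 0 to 958 with 1 library left out. In Homo KO against WT 0 were called, and 641 with DESeq2, 1 without a filter, 7 with 2 groups only, 41 without the 3 muscle-rich libraries, 2 without Hete KO 2, 2 without the liver libraries and 0 to 153 with 1 library left out. In Homo KO against Hete KO DESeq2 called 8 and edgeR 0.

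With the replicate number as a block, 5 members (Cenpe, Cenpf, Top2a, Aurkb and Tpx2) and 248 genes were called in Hete KO against WT. Same-numbered libraries had deviations correlated between -0.07 and 0.46, and not every pair was above 0.1, so the number was not taken as a pairing. The highest values were 0.46 for Hete KO 3 with WT 3 and 0.22 for Hete KO 2 with WT 2.

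Of the values of named members over the alternatives, 713 kept direction and call, 44 were newly called, 26 lost the call and 9 turned sign. The turned values are Pcna in Homo KO with limma (0.12 at both pseudocounts), Cdk1 in Homo KO without the 3 muscle-rich libraries (0.13), and Birc5 in Hete KO with limma (-0.58 and -0.63), with 1 library left out (-0.32 to 0.28, below 0 without WT 3, -0.10, and without Hete KO 2, -0.32, which is also the muscle setting) and without the liver libraries (-0.09). The cause was not tested, and members under 30 counts are limited by depth.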

Other observations

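For several members most estimated counts lay on transcripts that GENCODE M21 does not class as protein-coding. The protein-coding share over all libraries was 6.33% for Cdt1, 11.0% for Cenpa, the centromeric histone gene, 17% for Kif23, a subunit of centralspindlin, and 25.8% for Tk1. It was under 50% for 4 mitotic and 3 replication genes, with medians of 89.7% over the mitotic and 81.6% over the replication genes. With protein-coding transcripts alone, Cdt1 was too low to be tested, Tk1 had a log2 fold change of -1.24 in Homo KO and -0.88 in Hete KO against WT, and Birc5 had -0.46 and 0.08. The pseudogene Ccnb2-ps held between 22.1 and 75.9 estimated counts per library, so the level of Ccnb2 is uncertain. Kif20a, Kif4, Cdc20, Nusap1 and Prc1 also have exons that overlap those of counted genes on the opposite strand, so their reads may be shared.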
